A study of Mus musculus with 4 samples.

Results

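Expression of 9 genes of mitophagy, the removal of mitochondria by autophagy, was compared between pancreatic islets of Tafazzin-knockdown and control mice. The genes were picked by name from a table of 24940 genes: the kinase Pink1, the outer-membrane receptors Bnip3, Bnip3l and Fundc1, the cargo adaptors Sqstm1 and Optn, the membrane tags Map1lc3b and Gabarapl1, and the initiating kinase Ulk1. All 9 were in the table and all 9 entered the test. The samples were 4 RNA libraries from islets of male mice aged 3 to 4 months on a low-fat chow diet, each a pool of about 300 islets from 2 to 3 mice. Control replicates 1 and 2 came from non-transgenic mice and knockdown replicates 3 and 4 from Tafazzin-knockdown mice. The labels do not state which promoter drives the knockdown or in which cells, and the controls carry no transgene, so that an effect of the transgene and one of Tafazzin depletion cannot be told apart.

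In the best known route to mitophagy, the kinase PINK1 builds up on damaged mitochondria, whose surface proteins become coated with ubiquitin. Adaptors such as p62 (Sqstm1) and optineurin then link the ubiquitin-coated organelle to ATG8 proteins, here LC3B (Map1lc3b) and GABARAPL1, on the growing autophagosome. A second route needs no ubiquitin: BNIP3, NIX (Bnip3l) and FUNDC1 sit in the outer mitochondrial membrane and bind ATG8 proteins themselves. Tafazzin remodels cardiolipin, the lipid of the inner mitochondrial membrane that can itself mark mitochondria for autophagy when it is exposed at the surface. Beta cells, the insulin-producing majority of islet cells, couple glucose to secretion through mitochondrial ATP. The comparison asks how the transcripts of this machinery differ between knockdown and control islets.

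Levels are given in units, which are reads per 10000000 library reads, counted apparently over whole gene bodies, introns included. The libraries held 68823160 to 81073502 reads, of which 4320910 to 4962798 lay outside the 13 most abundant rows other than insulin. Between 73 and 3747 reads lay behind each of the members' values, a counting error of 1.63% to 11.7%. Ins2 stood at 58452, 46108, 48195 and 51995 units in replicates 1 to 4, and all 10 beta cell markers were detected. Taz, the targeted gene, held 23.1 and 15.4 units in the control libraries, and the knockdown libraries 13.8 and 12.7, in the direction of the labels without passing the test (limma adjusted p = 0.529). Control replicate 2 stood low for most genes. Its median-ratio size factor over all tested genes was 0.847, against 1.04 for control replicate 1 and 1.08 and 1.06 for knockdown replicates 3 and 4. Values are therefore given as deposited and, where it matters, after division by these factors, called scaled units. Log2 fold changes are given relative to the median of all 13531 tested genes, which was 0.17 as deposited and -0.00461 after scaling. Unlike the fold changes, limma p-values refer to the change before this shift.

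None of the 9 mitophagy genes passed the test in either direction. The background of calls over all tested genes was 2.49% higher and 0.0443% lower by limma on the deposited values. The smallest limma adjusted p among the members was 0.786 (Bnip3). After scaling, where 1.12% of all genes were called higher and 0.155% lower, 0 members were called and Bnip3 again had the smallest limma adjusted p, at 0.153. The quasi-likelihood test of edgeR on the recovered reads also called 0 members, against 1.29% of all genes higher and 0.148% lower, and DESeq2 called 0 members, against 0.613% and 0.0813%. At an unadjusted p under 0.05 limma listed 0 members (10.3% of all genes) and after scaling 1, Bnip3 (again 10.3% of all genes). The members' median log2 fold change was -0.07 (0 over all tested genes by construction), with 7 of 9 below the median of all genes. As deposited, Bnip3, lower in the knockdown, was the single member of the 9 whose groups did not overlap. Over all tested genes the knockdown libraries both lay above the controls in 34.9% and both below in 4.49%.

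**Figure D1:**
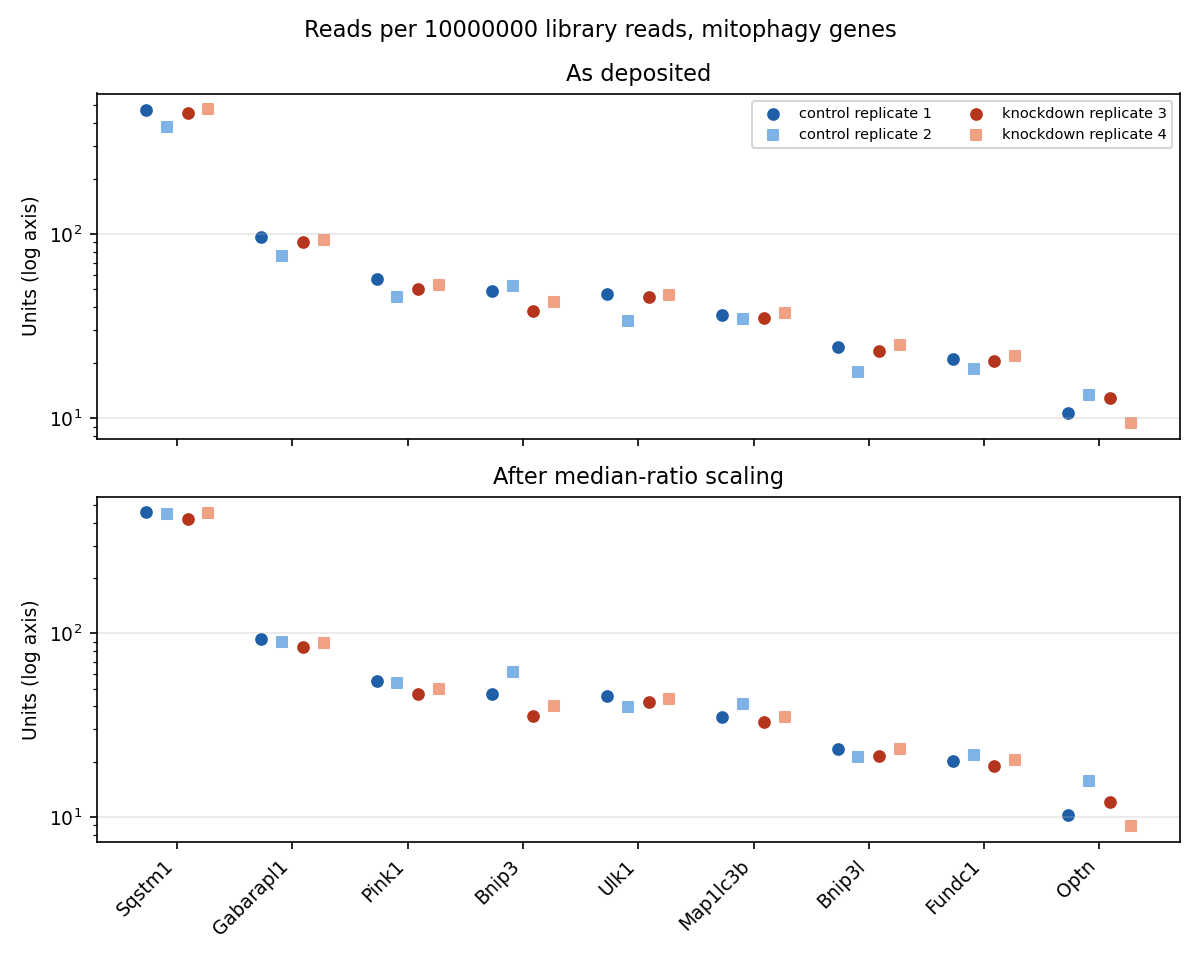
Level of each of the 9 genes in each of the 4 libraries, in reads per 10000000 library reads on a log axis, as deposited (top) and after median-ratio scaling (bottom); each point is 1 library. Control replicate 2 is the lowest library for 7 genes as deposited and for 2 after scaling, while Bnip3 is lower in both knockdown libraries in both panels.

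Bnip3 encodes a mitophagy receptor whose transcription is known to rise under hypoxia through HIF-1. Its promoter is printed because Bnip3 is the member that stood lowest relative to the controls. That of Map1lc3b is set beside it because it holds as many matches to the HIF-1 core, while the values of Map1lc3b overlapped between the groups. Both are 300-base windows from RefSeq on GRCm38.p6 (mm10), 5′ to 3′ on the gene's strand, 250 bases before to 50 after the start. The Bnip3 window lies at chr7:138909457-138909756 (minus strand) and the Map1lc3b window at chr8:121590188-121590487 (plus strand). Capitals mark ACGTG or GCGTG on either strand, and neighbouring matches run together.
Bnip3: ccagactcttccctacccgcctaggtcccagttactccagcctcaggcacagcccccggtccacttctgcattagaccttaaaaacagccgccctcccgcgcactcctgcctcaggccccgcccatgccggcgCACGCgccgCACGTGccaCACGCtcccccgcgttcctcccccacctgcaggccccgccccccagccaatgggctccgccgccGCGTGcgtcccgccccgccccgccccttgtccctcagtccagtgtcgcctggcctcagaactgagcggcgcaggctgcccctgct
Map1lc3b: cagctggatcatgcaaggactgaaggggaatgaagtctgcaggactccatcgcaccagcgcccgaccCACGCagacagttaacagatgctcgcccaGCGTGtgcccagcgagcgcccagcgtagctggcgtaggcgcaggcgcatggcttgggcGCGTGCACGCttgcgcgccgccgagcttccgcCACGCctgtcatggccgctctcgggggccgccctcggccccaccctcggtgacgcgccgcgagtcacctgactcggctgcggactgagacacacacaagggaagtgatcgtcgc
Each window holds 5 matches, counting the palindrome in Bnip3, CACGTG, on both strands. Of 32851 promoter windows of this length 43.8% hold at least 1 match and 1.66% hold 5 or more. The GC content is 71.7% in the Bnip3 window and 68.0% in that of Map1lc3b, and this background was not matched for GC content. A match is found in 5 of the 8 members with a window, the others being Optn with 3 and Pink1 and Ulk1 with 1 each. CACGTG, which is also the core of the lysosomal CLEAR element, was found in 7.15% of all windows and, among the 8, in that of Bnip3. The FOXO words GTAAACA and ATAAACA, searched on both strands, occur in 7.97% of windows and in that of Gabarapl1. The antioxidant words TGACNNNGC and TGAGNNNGC, searched likewise, occur in 27.8% of windows and in those of Fundc1 and Map1lc3b. Bnip3l was not matched.

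Among the outer-membrane receptors, Bnip3 (NM_009760, chromosome 7, 138890836 to 138909506, minus strand) held 48.8 and 52.2 units in the control libraries, replicates 1 and 2. The knockdown libraries, replicates 3 and 4, held 38.3 and 42.6. Both knockdown libraries lay below both controls. The means were 50.5 ± 2.37 and 40.5 ± 3.01 units (SD, n = 2 each), a ratio of 0.801. The log2 fold change was -0.48 ± 0.24 SE (95% interval -0.96 to 0.000252, limma adjusted p = 0.786). After scaling the controls stood farther apart, at 47.0 and 61.6 scaled units, and the knockdown libraries at 35.7 and 40.3. The scaled log2 fold change was -0.49 ± 0.15 SE (95% interval -0.81 to -0.17), with an unadjusted p of 0.00383 in the limma fit and an adjusted p of 0.153. By edgeR the adjusted p was 0.102, and by DESeq2 0.501. Bnip3 kept the lower direction in each of 17 alternative settings, between -0.68 and -0.30, and was called in 0 of them. The smallest of these changes was that without control replicate 2.

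Bnip3l, the paralogue that encodes NIX, the receptor that clears mitochondria from maturing red cells, did not pass the test either (NM_009761, chromosome 14, 66985240 to 67008877, minus strand). It stood at 24.4 and 17.9 units in the control libraries and at 23.1 and 24.9 in the knockdown. The groups overlapped, and after scaling the 4 libraries lay between 21.1 and 23.6. The log2 fold change was 0.02 ± 0.25 SE (95% interval -0.47 to 0.52, limma adjusted p = 0.899). Fundc1, a receptor gated by phosphorylation, had overlapping groups too (NM_001313745, chromosome X, 17555600 to 17572325, minus strand). Its values were 20.9 and 18.5 units against 20.3 and 21.7, with a log2 fold change of -0.07 ± 0.25 SE (95% interval -0.57 to 0.42, limma adjusted p = 0.965). The 3 receptors therefore span changes from -0.48 to 0.02, and whether they differ in their change was not tested across all genes.

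Pink1, the kinase that senses damaged mitochondria, stood at 56.8 and 45.3 units in the control libraries and at 50.1 and 52.8 in the knockdown (NM_026880, chromosome 4, 138313410 to 138326296, minus strand). The knockdown libraries lay between the controls. The log2 fold change was -0.15 ± 0.24 SE (95% interval -0.62 to 0.33, limma adjusted p = 0.993). After scaling the values were 54.7 and 53.4 against 46.6 and 49.9 scaled units, so that the groups no longer overlapped, at a ratio of 0.892 (limma adjusted p = 0.761). Such separation was common: after scaling 20.4% of all tested genes had both knockdown libraries above and 20.0% both below the controls, against 0 and 3 of the 9 members.

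**Figure D2:**
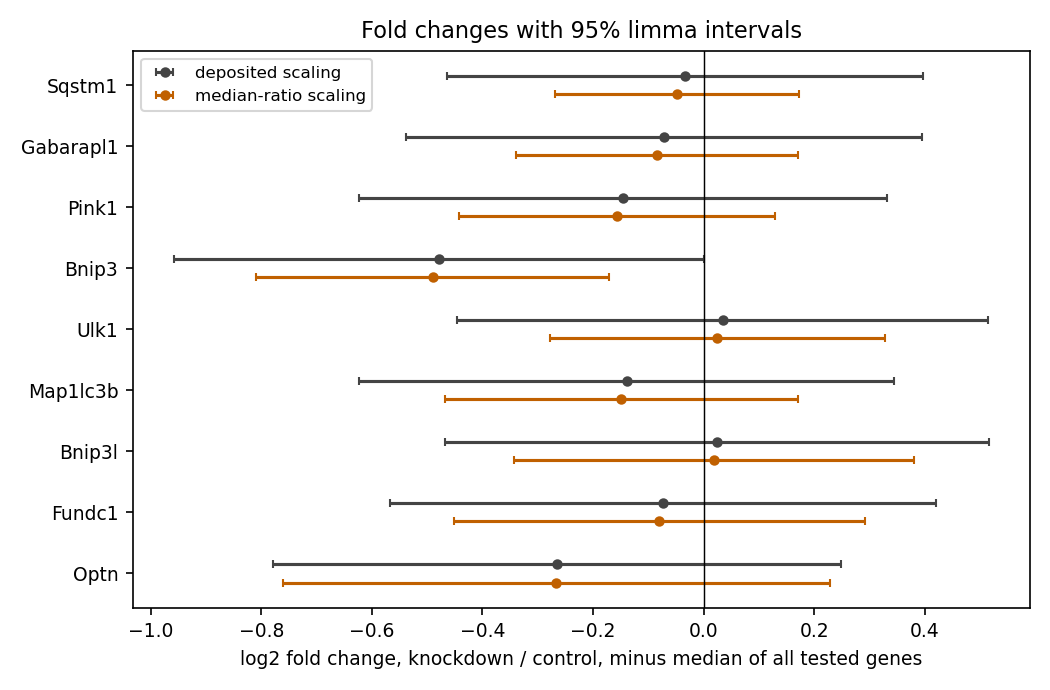
Log2 fold change of knockdown over control for each gene, minus the median of all tested genes, with the 95% interval of the limma fit, as deposited (grey) and after median-ratio scaling (orange). Bnip3 at -0.48 lies farthest from 0; after scaling, of the 9 intervals its own alone leaves out 0, and the gene does not pass adjustment over all genes.

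The cargo adaptors differed widely in level. Sqstm1, the gene of p62 and the most abundant of the 9 (NM_001290769, chromosome 11, 50200152 to 50210820, minus strand), stood at 472 and 380 units in the control libraries and at 452 and 477 in the knockdown. The groups overlapped, and after scaling the 4 values lay between 420 and 455. With 3080 to 3747 reads a library it has the narrowest interval of the members: a log2 fold change of -0.05 ± 0.11 SE after scaling, with a 95% interval from -0.27 to 0.17 (limma adjusted p = 0.929). As deposited the change was -0.03 ± 0.22 SE (limma adjusted p = 0.933). Optn, the gene of optineurin, an adaptor activated by the kinase TBK1, was the lowest in units (NM_181848, chromosome 2, 5020642 to 5064117, minus strand). It stood at 10.6 and 13.3 units in the control libraries and at 12.9 and 9.41 in the knockdown, from 73, 108, 99 and 74 reads. Each group had a high and a low library, and the groups overlapped. The log2 fold change of -0.27 ± 0.26 SE (95% interval -0.78 to 0.25, limma adjusted p = 0.965) became 0.02 without control replicate 2.

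For the ATG8 genes and the initiating kinase the groups overlapped as deposited. Map1lc3b, the gene of LC3B, whose lipidated form is the usual marker of autophagosomes, was the steadiest member as deposited (NM_026160, chromosome 8, 121590468 to 121598047, plus strand). It was read at 36.3 and 34.8 units in the control libraries and at 35.2 and 37.3 in the knockdown (log2 fold change -0.14 ± 0.25 SE, 95% interval -0.62 to 0.34, limma adjusted p = 0.990). After scaling Map1lc3b was less steady, at 35.0 and 41.0 against 32.7 and 35.3 scaled units. The groups still overlapped, at a ratio of 0.894 (limma adjusted p = 0.810). Gabarapl1, an ATG8 gene known as a FOXO target, stood at 96.8 and 76.5 units against 90.6 and 93.1 (NM_020590, chromosome 6, 129533192 to 129542331, plus strand). Its log2 fold change was -0.07 ± 0.24 SE (95% interval -0.54 to 0.39, limma adjusted p = 0.965). The groups overlapped as deposited, whereas after scaling the knockdown libraries, at 84.3 and 88.1, lay just below the controls at 93.2 and 90.2. The row of 1700101I11Rik, which overlaps Gabarapl1, holds 0.0406 of its level. Ulk1, the kinase that starts autophagosome formation and phosphorylates FUNDC1, stood at 47.2 and 33.5 units in the control libraries and at 45.3 and 46.5 in the knockdown (NM_009469, chromosome 5, 110784489 to 110810081, minus strand). Control replicate 2 alone was low and the groups overlapped (log2 fold change 0.03 ± 0.25 SE, 95% interval -0.45 to 0.52, limma adjusted p = 0.893).

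Per kb of gene body, introns included, the order of levels was Sqstm1 (41.7 units per kb), Gabarapl1 (9.77), Map1lc3b (4.74), Pink1 (3.98), Bnip3 (2.44), Ulk1 (1.69), Fundc1 (1.22), Bnip3l (0.955) and Optn (0.266). For each pair of neighbours in this order the ranges over the 4 libraries did not overlap. The closest were Ulk1, from 1.31 to 1.85 units per kb, and Fundc1, from 1.11 to 1.30. Long introns lower this density, so that it is not a ranking of mature transcripts.

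Ratios of reads of functional partners within a library do not depend on how the libraries are scaled. The pairs follow the genes' roles but were formed with the values known. Bnip3 over Bnip3l was 2.00 and 2.92 in the control libraries, and 1.66 and 1.71 after knockdown, without overlap. The 2 controls differed by more than counting error, with 95% counting intervals of 1.66 to 2.41 and 2.42 to 3.52, whereas the interval of control replicate 1 overlaps those of both knockdown libraries, 1.38 to 2.00 and 1.43 to 2.04. The exact two-sided permutation p was 0.333, the smallest that 2 libraries against 2 can give. For Gabarapl1 over Map1lc3b the ratios were 2.66 and 2.20 against 2.57 and 2.498, for Ulk1 over Fundc1 2.26 and 1.81 against 2.22 and 2.14, and for Sqstm1 over Optn 44.5 and 28.5 against 35.0 and 50.6. In these other 3 pairs the groups overlapped.

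**Figure D3:**
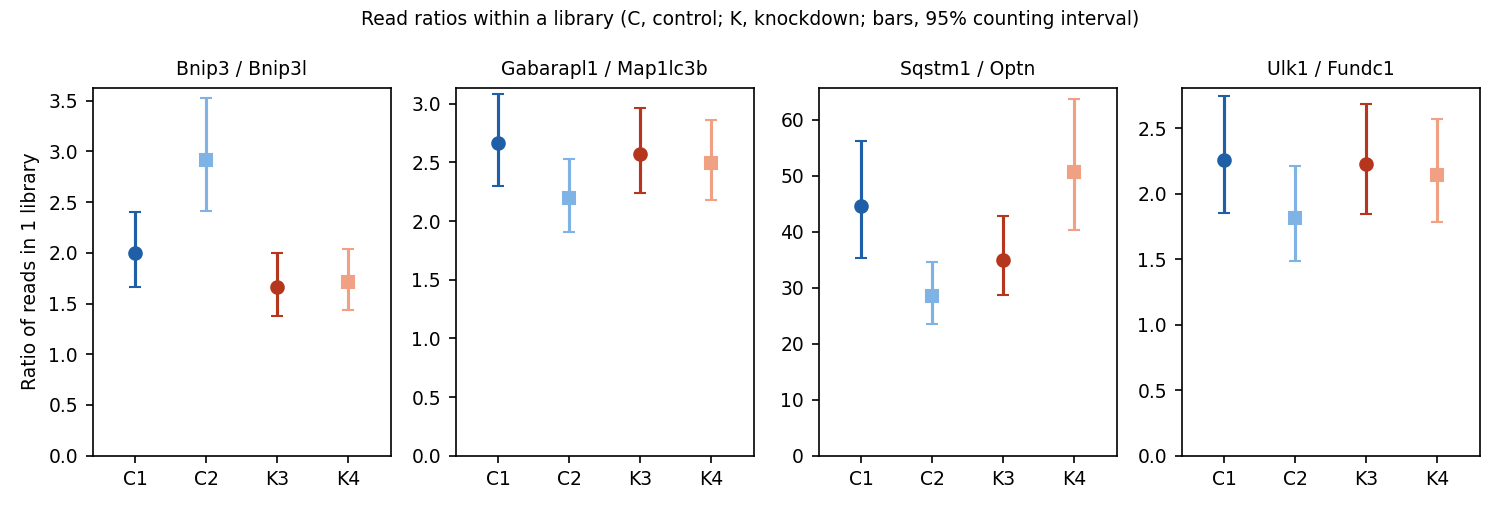
Ratio of the reads of partner genes within each library (C1 and C2, control replicates 1 and 2; K3 and K4, knockdown replicates 3 and 4), on linear axes from 0, with bars for the 95% counting interval. Bnip3 over Bnip3l is lower in both knockdown libraries, with its controls far apart, and the other 3 pairs overlap.

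Other genes of mitophagy and autophagy gave no call as deposited. Of 37 other tested mitophagy genes 0 were called in either direction, and 1 had an unadjusted p under 0.05. Their median log2 fold change was 0.00482. Hdac6, a deacetylase with a ubiquitin-binding domain, stood at 153 and 117 against 121 and 138 units, and Nbr1, an adaptor akin to p62, at 140 and 106 against 125 and 139, with overlapping groups. Of 14 ATG8 and conjugation genes, 21 initiation and membrane-supply genes and 33 lysosome and fusion genes, limma called 0 higher and 0 lower on the deposited values, and 1, 1 and 0 had an unadjusted p under 0.05. Without control replicate 1, where limma called 9.36% of all tested genes higher, 4 other mitophagy genes, 1 ATG8 or conjugation gene, 0 initiation genes and 6 lysosome genes were called higher. Without control replicate 2, where 0.436% of all tested genes were called lower, 1 lysosome gene was called lower. As deposited, the medians of the last 3 lists were -0.00884, -0.01 and -0.00085. Gabarap, an ATG8 protein gene, stood at 156 and 126 against 160 and 179 units. The most abundant genes of the other lists overlapped between the groups: Vmp1, a membrane scramblase gene, at 98.7 and 84.4 against 127 and 93.3 units, Wipi1, a phosphoinositide reader, at 94.3 and 69.7 against 99.9 and 85.0, and Psap, the prosaposin gene, at 740 and 592 against 637 and 713.

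Atg16l1, which places LC3 lipidation on the membrane, was an exception after scaling. It stood at 50.3 and 45.9 units in the control libraries and at 38.3 and 28.7 in the knockdown, both knockdown libraries below both controls. It was not called as deposited (log2 fold change -0.68 ± 0.25 SE, limma adjusted p = 0.401). After scaling it was called lower (-0.70 ± 0.16 SE, limma adjusted p = 0.0198), as it was by edgeR (adjusted p = 0.0114) but not by DESeq2 (adjusted p = 0.0898). It was called lower in 3 of 17 alternatives and not after quantile normalization (limma adjusted p = 0.0823). With scaling and 1 library left out, the call was lost without either control (limma adjusted p = 0.648 for replicate 1 and 0.275 for replicate 2) and without knockdown replicate 4 (0.147). Scarna6, a small Cajal body RNA annotated within the gene, has a row of its own at 10.6 and 11.6 units in the control libraries and 5.35 and 1.65 in the knockdown. If gene bodies were counted, the Atg16l1 row includes these reads, and without them it would stand at 39.7 and 34.3 units against 33.0 and 27.1. The part of Scarna6 in the calls was not tested.

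Genes known to share regulators with the members showed single calls. Of 23 tested HIF-1 targets 1 was called higher and 0 lower, with a median of -0.11. The call was Hk2, a hexokinase, which went up from 1.45 and 0.740 units to 5.74 and 4.07 (log2 fold change 1.33 ± 0.38 SE, limma adjusted p = 0.00646), which rests on 10, 6, 44 and 32 reads. After scaling it was no longer called (limma adjusted p = 0.0649), nor by edgeR (0.0684), DESeq2 (0.266), after quantile normalization (0.172), without control replicate 2 (0.109) or without knockdown replicate 3 (0.642), and it was called in 7 of 17 alternatives. Ero1l, an oxidase of the endoplasmic reticulum, was not called as deposited (limma adjusted p = 0.654), at 84.9 and 71.0 against 54.8 and 64.4 units. After scaling it was called lower (log2 fold change -0.56 ± 0.13 SE, limma adjusted p = 0.0309), as by edgeR (adjusted p = 0.0289) but not by DESeq2 (0.0977) or after quantile normalization (0.101). It was called in 3 of 17 alternatives. With scaling the call was lost without either control (limma adjusted p = 0.731 for replicate 1 and 0.239 for replicate 2) and without knockdown replicate 3 (0.518). Of the most abundant HIF-1 targets, Vegfa, an angiogenic factor, stood at 210 and 178 against 245 and 233 units (limma adjusted p = 0.774), and Aldoa, a glycolytic enzyme, at 525 and 438 against 432 and 467 (limma adjusted p = 0.960). Ero1l was named after its values were seen.

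Of 16 tested FOXO targets 1 was called higher and 0 lower, with a median of -0.03. At an unadjusted p under 0.05 limma listed 2 of them, and 1 after scaling. Pik3ip1, an inhibitor of PI3-kinase, rose from 1.89 and 3.70 units to 9.39 and 9.16 (log2 fold change 1.31 ± 0.31 SE, limma adjusted p = 1.89e-04; 0.0325 after scaling and 0.0431 by edgeR). It was called in 11 of 17 alternatives. It was not called by DESeq2 (adjusted p = 0.233), after quantile normalization (0.1004), with no filter on low values (0.0867) or without knockdown replicate 3 (0.0673), and with scaling as well not without control replicate 1 (0.733). The row of Mir3470a, annotated over 223088 nt that cover Pik3ip1, holds 24.9 times its level. The most abundant targets overlapped between the groups, Sesn3, a sestrin gene, at 62.0 and 42.8 against 45.4 and 56.0 units and Sod2, the mitochondrial superoxide dismutase, at 59.7 and 37.4 against 46.7 and 53.9. Of 14 NRF2 targets 1 was called higher and 0 lower, with a median of 0.06. At an unadjusted p under 0.05 limma listed 4 of them, and 4 after scaling. Gsta4, a glutathione transferase, stood at 0.581 and 0 against 6.52 and 1.02 units (limma adjusted p = 0.0297), on 4, 0, 50 and 8 reads. After scaling it was no longer called (limma adjusted p = 0.197), nor by edgeR (0.0569), DESeq2 (1.0), without control replicate 2 (0.219) or without knockdown replicate 3 (1.0), and it was called in 6 of 17 alternatives. The ferritin genes Ftl1 and Fth1 stood at 405 and 335 against 395 and 439 units and at 237 and 194 against 317 and 272 (limma adjusted p = 0.893 and 0.460). Over all 158 tested genes of the 7 lists, 3 were called higher (1.90%) and 0 lower, against 2.49% and 0.0443% of all tested genes.

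**Figure D4:**
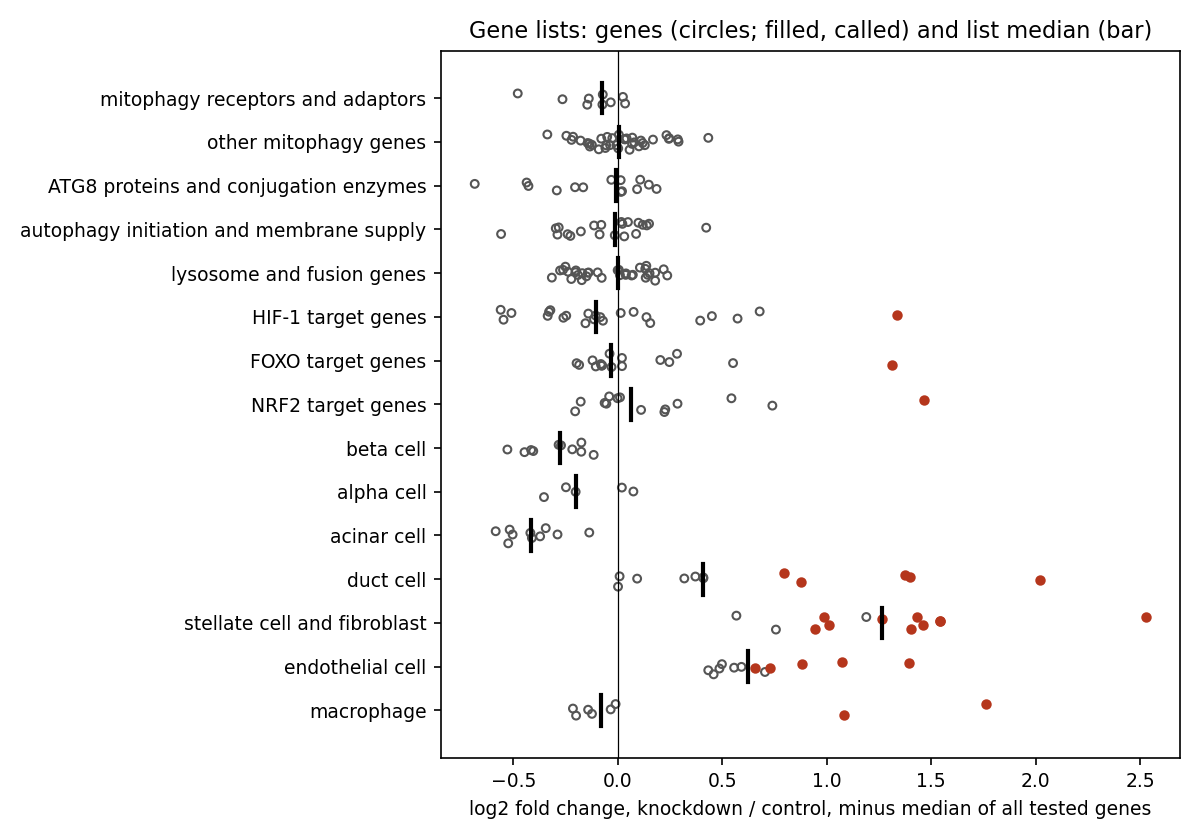
Log2 fold change relative to the median of all tested genes for the 9 mitophagy genes, 7 lists of related pathways and 7 lists of cell type markers; each circle is a gene, filled where limma called it, and the bar is the list's median. The mitophagy, autophagy and lysosome lists centre near 0 with 0 filled circles, while markers of stellate, endothelial and duct cells lie to the right.

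Markers of some other cell types moved with the groups. Of 13 stellate cell and fibroblast markers 10 were called higher and 0 lower, with a median log2 fold change of 1.27 and a summed level of 135 and 138 units in the controls against 425 and 328 in the knockdown. Of 12 endothelial markers 5 were called higher (sum 211 and 180 against 404 and 314 units), and of 12 tested duct markers 5 (sum 909 and 961 against 1787 and 1172). Over all tested genes limma called 2.49% higher. The medians of the endothelial and duct lists were 0.62 and 0.41. Without knockdown replicate 3 the stellate, endothelial and duct medians were 1.21, 0.42 and 0.19. In that fit, which keeps 1 knockdown library, 13 of 13, 12 of 12 and 9 of 12 of these markers lay above the median of all genes. Knockdown replicate 3 held the higher sum of its group in each of these lists, and the calls above include it. After scaling of all libraries limma called 8, 3 and 3 of these markers higher, against 1.12% of all tested genes. Col1a1, a collagen of fibrils, rose from 18.6 and 17.5 units to 66.5 and 48.1 (limma adjusted p = 6.25e-08). Beta cell markers all lay under the median of all genes (10 of 10), 0 were called as deposited, and their median was -0.28, or -0.14 without knockdown replicate 3. Mafa, a beta cell transcription factor gene named after its values were seen, stood at 183 and 125 against 113 and 122 units. It was called lower after scaling (limma adjusted p = 0.0198), by edgeR (0.0439) and by DESeq2 (0.0318), in 5 of 17 alternatives in all. Mafa was not called as deposited (limma adjusted p = 0.669) or after quantile normalization (limma adjusted p = 0.0655). Its scaled log2 fold change of -0.54 became -0.41 without control replicate 1 and -0.67 without control replicate 2. Without knockdown replicate 3 it was -0.48, and without knockdown replicate 4 -0.61. Each of these fits leaves 1 library in a group, so that they cannot settle how far the call depends on single pools. Of 10 tested acinar markers 0 were called as deposited, and 0 had a log2 fold change over that of the median gene. The median of the list was -0.41, or -0.99 without knockdown replicate 3, while their summed levels overlapped (2800.1 and 5686 against 4916 and 2282 units). Among macrophage markers 2 of 8 were called higher, but only 2 of 8 lay above the median of all genes. The median of the macrophage list was -0.08, and its summed levels overlapped (63.5 and 55.3 against 78.8 and 62.7 units). Of 5 alpha cell markers 0 were called. The part of these shifts in the values of Bnip3 or Atg16l1 was not tested, and in whole islets fewer cells of a type and less RNA per cell cannot be told apart.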

How the data were processed

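Total RNA of islets was depleted of ribosomal RNA and sequenced from randomly primed directional libraries, per the labels' protocols. The row of Rn45s, a ribosomal RNA precursor, still held 41.6% to 42.6% of the library reads. The submitters' processing notes list STAR 2.5.1b, HOMER 4.9, edgeR and mm10 but give no roles. The authors deposited 1 signal value per gene and library: reads per 10000000 reads of the library total, not divided by length although the table announces FPKM. Dividing by the smallest step gave whole reads for 100% of the values of every library, to a tolerance of 0.01 reads. The counted region, strand and treatment of multiply mapping reads are not given in the sources used here. The length column equals the genomic span for 99.5% of rows, and in 28 of 28 values of 7 short genes nested in introns, at a mean of at least 5 reads, the host row held at least as many reads. Gene-body counting was inferred from this. A host with enough exon reads would meet the second condition as well, so that the counted region is not settled. Of the members, 7 overlap no other row.

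The 13531 genes whose mean reached 1 unit and whose length reached 200 nt were fitted on log2(value + 1) by limma 3.58.1 in R 4.3.3, with a trend of variance on level, two-sided, with Benjamini-Hochberg adjustment at 0.05. Fold changes on this scale understate those of low genes. The prior degrees of freedom were infinite, so that each gene took its spread from the trend. The spread as deposited includes the low scale of control replicate 2: standard errors of the members were 0.22 to 0.26, and 0.11 to 0.24 after median-ratio scaling. The reads went to edgeR 4.0.16 and DESeq2 1.42.0. Libraries are separate pools; the chi-square per degree of freedom was 6.42 between the controls, 5.69 between the knockdown libraries and 5.69 to 9.74 in the 4 pairs across groups. P-values are set against the spread between pools, in the main fit that of the trend and not the gene's own. With 1 library left out, only the group that keeps 2 libraries supplies this spread. The members and gene lists were chosen with earlier results of these data known, and 1 of the 10 genes of the rule is not reported here. Named genes are the 9 members, Taz, called genes of each pathway list, the 2 most abundant tested genes of each pathway list (1 gene left out; those of the marker lists are given in part), and genes said to be chosen afterwards.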

Additional observations from a re-analysis of the deposited data

How the results depend on the processing

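No paired analysis was possible because the groups share no replicate number. No member was called under median-ratio scaling, quantile normalization, other pseudocounts, other filters, no trend, edgeR or DESeq2. Leaving out single libraries gave 0 members in either direction, 28 to 1266 genes higher and 3 to 59 lower, against 337 and 6. With median-ratio scaling as well, chosen after seeing the data, 0 members were called, and the genes numbered 0, 75, 45 and 341 higher and 0, 6, 49 and 68 lower without replicates 1, 2, 3 and 4. Genes called higher and lower numbered 151 and 21 after median-ratio scaling, 174 and 20 by edgeR, 83 and 11 by DESeq2, 528 and 16 without trend, and 80 and 0 with no filter on low values (1513 at an unadjusted p under 0.05). After quantile normalization 86 were higher. Where limma called 0 in both directions, 857 genes had p under 0.05 before adjustment. The members' median log2 fold change, -0.07, ran from -0.12 to -0.05 with single libraries left out and from -0.13 to -0.06 with scaling as well. Pink1, Bnip3, Fundc1, Map1lc3b and Gabarapl1 kept their direction in all 17 alternatives. Sqstm1 turned to 0.165 after quantile normalization and 0.00406 with pseudocount 5, and ranged from -0.0890 to 0.0120 with single libraries left out. There Bnip3l ranged from -0.0548 to 0.103, Optn from -0.552 to 0.0216 and Ulk1 from -0.0709 to 0.140. With scaling as well, Bnip3l turned to -0.0561 and -0.0521 without control replicate 2 or knockdown replicate 4, Ulk1 to -0.0729 and -0.0127, and Optn to 0.0218 without control replicate 2. The cause was not tested. With 2 pools a group, a change whose interval includes 0 cannot be told from none.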
